A study of Homo sapiens with 24 samples.

Results

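HMOX1 and the genes that the transcription factor NRF2 switches on under oxidative stress were followed in HEK293T, an established human embryonic kidney cell line, after 2 h or 6 h with an inhibitor of either enzyme that handles O-GlcNAc, a sugar attached to nuclear and cytoplasmic proteins. The 9 genes chosen were HMOX1, NQO1, GCLC, GCLM, TXNRD1, SRXN1, SLC7A11, MAFG and KEAP1. Of these, 8 are among the 13236 genes of the count tables; SRXN1 has no bin there and was not analysed here. The set was chosen by a measured value, HMOX1 having been selected on its fold change with OSMI-2 against DMSO at 6 h; the other genes were taken as known NRF2 targets and partners. For the members, that comparison and the DMSO time course that shares its DMSO 6 h libraries are therefore given as descriptions, with no test. The 8 genes hold 65 bins (exon or intron pieces of a gene model) of the 164219 in the tables. None of the 65 is marked as a detained intron, an intron kept in polyadenylated RNA, whereas 23.8% of all genes in the tables have such a bin.

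Polyadenylated RNA was sequenced in 2 experiments. In the OSMI-2 experiment the drug was OSMI-2 (10 µM), which inhibits OGT, the enzyme that adds O-GlcNAc, and controls had DMSO, the solvent. In the TMG experiment it was 5 µM TMG (Thiamet-G), which inhibits OGA (MGEA5), the enzyme that removes the sugar, again beside DMSO. All cells, controls included, had been put in fresh medium 3 h before treatment. The labels give 8 groups of 3 samples, and the tables hold 23 libraries, with 2 for OSMI-2 at 6 h. Libraries are named here by the letters a, b and c of their columns. The labels do not say whether the samples of a group came from separate cultures, so p-values measure the spread between these samples, which may be technical.

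KEAP1 holds NRF2 (encoded by NFE2L2) in the cytoplasm and has it degraded; oxidants and electrophiles modify KEAP1, and NRF2 then enters the nucleus. There it pairs with a small MAF protein such as MAFG and binds antioxidant response elements. Its targets make glutathione (GCLC and GCLM, the subunits of glutamate-cysteine ligase; SLC7A11, the cystine importer), reduce thioredoxin (TXNRD1) and quinones (NQO1), repair peroxiredoxins (SRXN1) and break down heme (HMOX1). HMOX1 is also induced by heme through BACH1 and by heat shock factor, and SLC7A11 also by ATF4, the factor of the amino acid response.

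RefSeq promoters (GRCh38.p14, 250 bases before to 50 after the start) were found for 7 of the 9 genes; HMOX1 and SLC7A11 had no entry. The core of the antioxidant response element, TGACNNNGC, was searched on both strands, and is the set shown because it is the sequence through which NRF2 acts. It occurred in 4 of the 9 promoter entries of these genes (3 of the 7 genes), and in 13.3% of all 35116 promoters. The matches lie upstream of the start, are written 5′ to 3′ on the strand of the gene, and stand in capitals. The GCLM match (chr1:93909436-93909484, minus strand) lies between positions -34 and -26 from the start. TXNRD1 has a match in each of its 2 promoter entries (chr12:104215660-104215708 and chr12:104286910-104286958, plus strand), and a further match that reaches the start is not printed. KEAP1 has a pair of matches (chr19:10502797-10502845 and chr19:10502774-10502822, minus strand) whose windows overlap.
GCLM: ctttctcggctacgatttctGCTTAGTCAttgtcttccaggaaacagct
TXNRD1, upstream start: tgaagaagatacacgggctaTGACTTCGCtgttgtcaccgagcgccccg
TXNRD1, downstream start: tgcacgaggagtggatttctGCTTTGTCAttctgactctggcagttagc
KEAP1, distal: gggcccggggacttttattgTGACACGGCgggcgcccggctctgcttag
KEAP1, proximal: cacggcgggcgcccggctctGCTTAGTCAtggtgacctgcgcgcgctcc
The matches in GCLM, in the downstream TXNRD1 promoter and in the proximal KEAP1 window read as the reverse complement, GCNNNGTCA. A looser core, TGANNNNGC, was present in 6 of the 9 entries (5 of the 7 genes) and in 41.8% of all promoters. The AP-1 site TGACTCA, which overlaps the antioxidant core in some promoters, was in none of the 9 member promoters and in 4.95% of all. These are descriptions of letters in the window, not binding sites.

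Levels are CPM, counts scaled to a common library total, and folds come from edgeR with TMM scaling, which adjusts library sizes for differences in composition. Total counts ran from 39.5 M to 100.2 M per library (M, mega). The dependence of counts on GC content differed by experiment: the slope of log2 CPM per 10 points of gene GC, relative to the mean library, was 0.60 to 0.94 in the OSMI-2 experiment except in DMSO 6 h library a (0.161), and -0.86 to -0.53 in the TMG experiment. The tables' detained introns held 0.756% to 1.21% of counts in DMSO 6 h libraries of the OSMI-2 experiment and 0.286% to 0.328% with OSMI-2 at 6 h. TMM and plain library totals place the median gene at 0.15 and -0.24 (log2) for OSMI-2 against DMSO at 6 h, and at -0.25 and 0.32 for DMSO 6 h against 2 h in that experiment, so both scales are given for these. All 6 genes listed as marks of the line were present (PAX2, VIM, KRT8, KRT18, NEFM, INA; 343 to 980 CPM summed). Of 4 fibroblast genes only COL1A1 was in the tables (6.28 to 20.4 CPM), and none of 3 leukocyte, 3 endothelial or 3 hepatocyte genes was. A change in bulk RNA can come from the number of cells that use a gene or from the RNA per cell, and these cannot be told apart.

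HMOX1, heme oxygenase 1, frees iron, carbon monoxide and biliverdin from heme. It lies on chromosome 22, 35777061 to 35790210, plus strand (coordinates as in the tables; hg19 per the submitters' processing notes), with 5 bins of 1854 bases. In the OSMI-2 experiment it stood at 40.3, 42.1 and 46.5 CPM with DMSO at 2 h and at 40.6, 47.5 and 53.1 CPM with OSMI-2 at 2 h, so the groups overlapped. At 6 h it stood at 12, 16.3 and 17.0 CPM with DMSO and at 39.3 and 41.3 CPM with OSMI-2. The DMSO libraries at 6 h were thus below all others of that experiment, and the OSMI-2 libraries at 6 h lay at the low edge of the 2 h range. In the TMG experiment HMOX1 stood at 13.5, 13.8 and 14.6 CPM with DMSO at 2 h and at 12.1, 12.9 and 13.0 CPM with TMG. At 6 h it was at 6.28, 7.25 and 7.59 CPM with DMSO and at 5.22, 5.32 and 5.36 CPM with TMG, every library below those of 2 h.

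**Figure D1:**
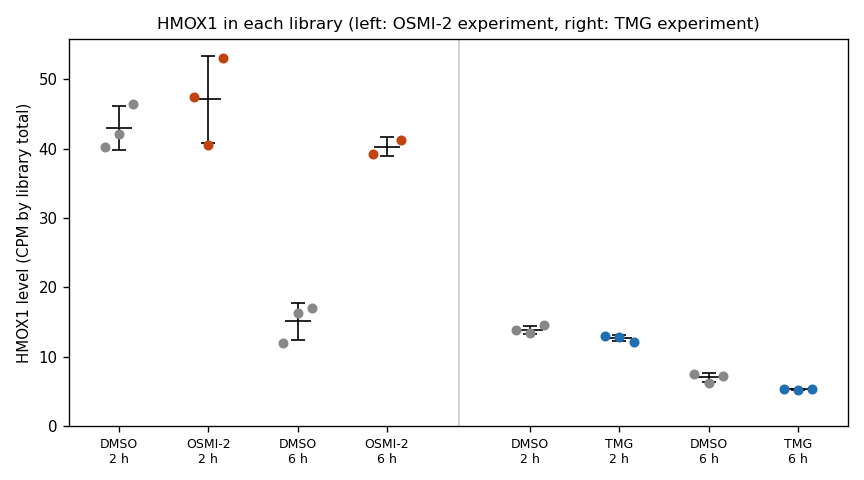
HMOX1 level (CPM by library total, y axis) in each library (points) of the 8 groups (x axis), with the mean and SD of each group in black; grey is DMSO, red OSMI-2 and blue TMG. DMSO libraries were lower at 6 h than at 2 h in both experiments, TMG libraries likewise, and the 2 OSMI-2 libraries at 6 h (39.3 and 41.3 CPM) sat beside the 2 h libraries.

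Ranked by mean, HMOX1 was highest with OSMI-2 at 2 h (47.1 ± 6.25 CPM, SD, n = 3), then with DMSO at 2 h (43.0 ± 3.19) and OSMI-2 at 6 h (40.3 ± 1.39, n = 2) of that experiment, and the ranges of these 3 neighbours overlapped. Next came DMSO at 6 h of the same experiment (15.1 ± 2.69), whose range covered that of DMSO at 2 h in the TMG experiment (13.9 ± 0.554) and overlapped that of TMG at 2 h (12.7 ± 0.469). DMSO at 6 h (7.04 ± 0.679) and TMG at 6 h (5.30 ± 0.0735) were lowest and did not overlap with each other. Between experiments, level and GC slope differ together: genes rich in G and C are counted high in the OSMI-2 experiment, and HMOX1 transcripts have a median GC of 60.8%. The part of GC in the difference between experiments was not tested.

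HMOX1 fell between 2 h and 6 h in solvent alone. In the TMG experiment the DMSO libraries gave a log2 fold change of -1.04 (SE 0.11, fold 0.486; quasi-likelihood F test of edgeR, p adjusted by Benjamini-Hochberg = 3.58e-08), lower in 3 of 3 libraries, and from -1.13 to -0.73 over 13 alternatives, all past the threshold of 0.05; -0.73 was the value with the GC trend removed. The TMG libraries, which that test did not use, went from 12.7 to 5.30 CPM, a ratio of 0.418, with no overlap. In the OSMI-2 experiment DMSO libraries went from 43.0 to 15.1 CPM (log2 fold change -2.03, SE 0.28; -1.51 by library total; -1.78 without DMSO 6 h library a), as a description. OSMI-2 libraries went from 47.1 to 40.3 CPM, a ratio of 0.856, and overlapped. HMOX1 was thus lower at 6 h in 3 of the 4 arms, and the arm where the ranges overlapped was OSMI-2.

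HMOX1 with OSMI-2 at 6 h was 3.37-fold the DMSO level (log2 fold change 1.75, SE 0.32), or 2.67-fold by library total (1.42). It was 1.58 (log2) without DMSO 6 h library a and 1.45 with the GC trend removed, and 1.42 to 1.95 over all alternatives, with both OSMI-2 libraries above all 3 DMSO libraries. All 5 HMOX1 bins were higher without overlap, with log2 ratios of 1.37 to 1.47 by library total. Of all bins 11.1% were higher without overlap. As HMOX1 was selected on this comparison and its bins share a gene, that share is a description and lends no support. The first bin, E001, had 1.15 CPM with DMSO and 3.17 CPM with OSMI-2, and the last, E005, 6.10 and 15.8 CPM. The difference between OSMI-2 and DMSO at 6 h therefore ran evenly along the gene. The same 5 bins were lower at 6 h than at 2 h with DMSO in the OSMI-2 experiment (-1.61 to -0.98), which 3.79% of all bins were. That comparison uses the same DMSO 6 h libraries and is a description too. In the TMG experiment the 5 bins were also lower (-1.14 to -0.87), which 18.1% of all bins were.

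At 2 h the HMOX1 difference with OSMI-2 was 0.13 (log2, SE 0.13; edgeR adjusted p = 1.0). With TMG HMOX1 gave -0.18 at 2 h (SE 0.08; edgeR adjusted p = 0.154) and fell by 0.41 at 6 h (SE 0.11; edgeR adjusted p = 0.0448), lower in 3 of 3 libraries at both times. The call at 6 h is a narrow one: 3 of 13 alternatives kept it, with adjusted p from 0.0297 to 1.0; DESeq2 gave 0.0531, and removing the GC trend gave -0.28 and 0.0578. Leaving out any single library other than DMSO 6 h library b ended it. The GC slopes of the TMG 6 h libraries were -0.86 to -0.81, and those of the DMSO 6 h libraries -0.82 to -0.64. The TMG effect on HMOX1 was not shown to differ between 6 h and 2 h (difference -0.21, SE 0.13; edgeR adjusted p = 0.707), nor the OSMI-2 effect from the TMG effect at 2 h (0.36, SE 0.16; edgeR adjusted p = 0.608).

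KEAP1, the sensor that marks NRF2 for degradation (chromosome 19, 10596794 to 10614054, minus strand, 10 bins), was the member with the highest count per length: 26.4 CPM per kilobase of bins with DMSO at 2 h in the OSMI-2 experiment and 15.3 in the TMG experiment, against 23.2 and 7.52 for HMOX1. At 6 h in the OSMI-2 experiment it stood at 82.0, 105 and 104 CPM with DMSO and at 127 and 131 CPM with OSMI-2, without overlap (log2 fold change 0.76, SE 0.30; 0.42 by library total; 0.39 with the GC trend removed). At 2 h it was at 106 to 115 CPM with DMSO and 113 to 128 CPM with OSMI-2 (0.12, SE 0.11; edgeR adjusted p = 1.0). With TMG KEAP1 gave -0.17 at 2 h (SE 0.06; edgeR adjusted p = 0.0699) and -0.24 at 6 h (SE 0.08; edgeR adjusted p = 0.0825), the latter at 49.7, 53.0 and 53.1 CPM against 58.2, 58.6 and 68.4 CPM with DMSO. These did not pass the threshold. They were -0.04 and -0.11 with the GC trend removed, and passed in 1 of 13 alternatives at each time: -0.23 at 2 h without DMSO 2 h library c (edgeR adjusted p = 0.0154) and -0.25 at 6 h by library total (edgeR adjusted p = 0.0457). DMSO at 6 h against 2 h gave -0.10 in the TMG experiment (SE 0.09; edgeR adjusted p = 0.344), which turned to 0.24 with the GC trend removed (edgeR adjusted p = 6.25e-04) and was -0.21 without DMSO 6 h library a (edgeR adjusted p = 0.00798); KEAP1 has a GC of 62.1%.

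MAFG, the small MAF partner (chromosome 17, 79876144 to 79885587, minus strand, 3 bins), had 28.7 to 32.9 CPM with DMSO and 27.9 to 38.2 CPM with OSMI-2 at 2 h, and 37.9 to 45.7 CPM and 43.5 to 48.2 CPM at 6 h. Drug and solvent overlapped at both times, and both arms were higher at 6 h by library total (ratios 1.41 and 1.39); with TMM the DMSO change was -0.06 (log2). In the TMG experiment MAFG lay between 21.9 and 27.9 CPM in all 12 libraries. Its log2 folds there were 0.11 (TMG at 2 h), -0.01 (TMG at 6 h) and -0.09 (DMSO over time), none past the threshold. GENCODE places SIRT7 over part of MAFG on the same strand and AC145207.8 on the other, and whether counting used strand is not given in the sources used here.

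SLC7A11, which brings in cystine for glutathione (chromosome 4, 139085249 to 139163503, minus strand, 12 bins), rose most with time among the members. In the TMG experiment it went from 9.64, 9.65 and 10.4 CPM with DMSO at 2 h to 31.2, 39.6 and 40.1 CPM at 6 h. The log2 fold change was 1.84 (SE 0.09, fold 3.58; edgeR adjusted p = 1.73e-13), higher in 3 of 3 libraries, and 1.74 to 1.96 over 13 alternatives. TMG libraries went from 9.43 to 10.3 CPM up to 37.7 to 40.1 CPM, a ratio of 3.90. Thus the rise over time was seen with and without TMG, and TMG against DMSO gave -0.03 at 2 h and 0.08 at 6 h (edgeR adjusted p = 0.851 and 0.613).

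SLC7A11 was far lower in the OSMI-2 experiment, at 0.812 to 1.54 CPM in all 6 libraries of 2 h (42 to 154 counts each). At 6 h it had 4.50, 1.68 and 1.61 CPM with DMSO and 3.02 and 4.38 CPM with OSMI-2. The high DMSO value is library a, the one with the low GC slope, and the groups overlap because of it: the log2 fold of OSMI-2 against DMSO was 0.96 (SE 0.37), 0.52 by library total and 1.48 without that library. DMSO 6 h against 2 h was 0.51, and 0.07 without it. The share of SLC7A11 counts in its last exon, the 3′ end, was 50% to 86.2% over the OSMI-2 experiment, 34.3% to 47.8% at 2 h in the TMG experiment and 64.3% to 68.6% at 6 h. All 12 bins were higher at 6 h than at 2 h with DMSO in the TMG experiment (log2 0.77 to 2.61, none overlapping; 20.9% of all bins were higher without overlap).

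GCLC and GCLM, the catalytic and modifier subunits of the enzyme that makes gamma-glutamylcysteine, moved alike and little. GCLC (chromosome 6, 53362137 to 53409927, minus strand, 18 bins) had 42.8, 45.4 and 47.5 CPM with DMSO at 2 h in the TMG experiment and 55.9, 59.2 and 63.6 CPM at 6 h, a rise of 0.34 (log2, SE 0.07; edgeR adjusted p = 7.6e-04). GCLM (chromosome 1, 94350759 to 94375012, minus strand, 8 bins) had 29.8, 32.3 and 32.4 CPM and then 35.7, 42.1 and 43.3 CPM, a rise of 0.30 (SE 0.08; edgeR adjusted p = 0.00381). Both were higher at 6 h in 3 of 3 DMSO libraries, and in the TMG libraries too (ratios 1.20 and 1.19). TMG against DMSO gave 0.01 and -0.08 for GCLC at 2 h and 6 h and 0.10 and 0.05 for GCLM, with edgeR adjusted p between 0.333 and 0.927.

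In the OSMI-2 experiment GCLC stood at 10.3 to 16.5 CPM at 2 h in both arms, and at 32.8, 14.8 and 11.4 CPM with DMSO and 15.2 and 17.4 CPM with OSMI-2 at 6 h. GCLM stood at 8.53 to 12.5 CPM at 2 h, and at 18.4, 11.1 and 8.81 CPM with DMSO and 12 and 12.6 CPM with OSMI-2 at 6 h. For both genes DMSO 6 h library a is the highest of its group and the other DMSO libraries lie below OSMI-2. The OSMI-2 fold at 6 h was 0.17 for GCLC and 0.36 for GCLM (log2), -0.27 and -0.05 by library total, and 0.62 and 0.61 without library a, so its sign depends on the scale. At 2 h OSMI-2 gave -0.02 and 0.10 (edgeR adjusted p = 1.0 for both).

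NQO1, which reduces quinones (chromosome 16, 69743302 to 69760533, minus strand, 6 bins), was low, with 86 to 681 counts per library. It fell with time in DMSO of the TMG experiment, from 3.05, 4.17 and 4.44 CPM to 2.83, 2.85 and 2.90 CPM (log2 -0.50, SE 0.15; edgeR adjusted p = 0.00994), lower in 3 of 3 libraries. Without DMSO 2 h library a the fall was -0.38 and no longer passed (adjusted p = 0.0763). TMG libraries ran from 3.60 to 4.35 CPM at 2 h and from 2.18 to 3.21 CPM at 6 h. In the OSMI-2 experiment NQO1 went from 5.18 to 8.31 CPM down to 3.74 to 4.62 CPM with DMSO, and from 5.67 to 6.80 CPM down to 2.54 and 4.71 CPM with OSMI-2. All 4 arms were thus lower at 6 h without overlap. NQO1 with OSMI-2 at 6 h gave 0.13 (log2, SE 0.37) and -0.22 by library total, with overlapping groups, so it did not share the position of HMOX1.

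TXNRD1, thioredoxin reductase 1, has 3 bins, which span 104659297 to 104684882 of chromosome 12 (plus strand). E001 is 21591 bases long, and E002 and E003 are exons of 110 and 112 bases. Whether these bins cover the whole gene was not tested. In summed bins TXNRD1 was at 9.38, 9.70 and 11.1 CPM with DMSO at 6 h and at 12.4 and 14.3 CPM with OSMI-2, without overlap (log2 0.78, SE 0.35; 0.41 by library total). E001 and E002 went opposite ways: E001 from 7.31 to 12.1 CPM (0.73 by library total) and E002 from 2.62 to 1.16 CPM (-1.17), both without overlap. In the authors' deposited table of bin usage, which compares a bin with the rest of its gene, E001 had a log2 fold of 0.92 and an adjusted p of 0.0028, and E002 -0.92 and 0.00366. The summed value of TXNRD1 therefore follows its long bin. GENCODE places RPL18AP3 and EID3 over part of TXNRD1 on the same strand and AC089983.1 on the other.

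E001 held 88.3% to 94.1% of TXNRD1 counts at 2 h in the OSMI-2 experiment, 64.0% to 82.8% with DMSO at 6 h, 90.4% to 91.0% with OSMI-2 at 6 h, and 40.6% to 51.1% in the TMG experiment.

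**Figure D2:**
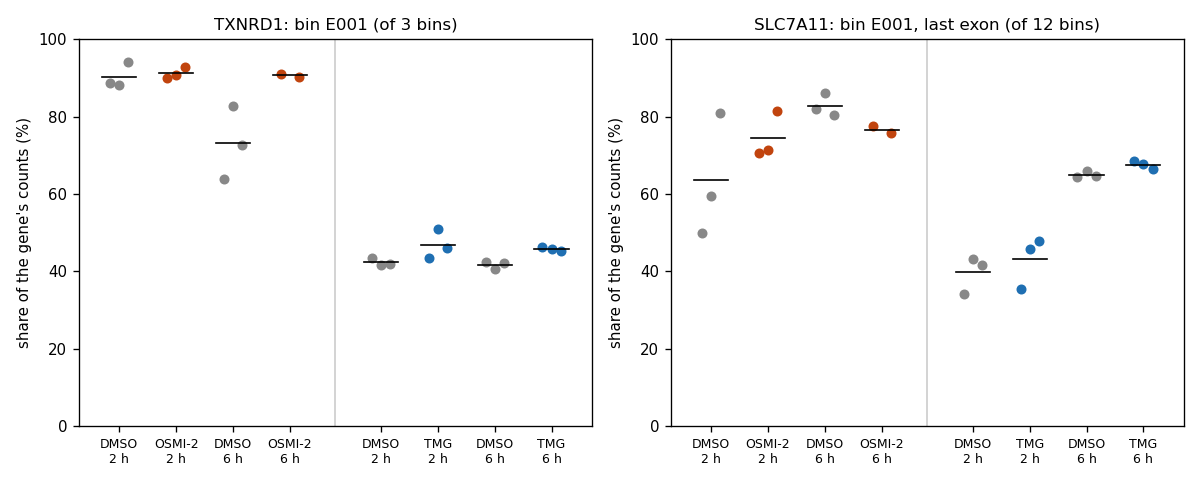
Share (%, y axis) of the counts of TXNRD1 (left) and SLC7A11 (right) that fell in bin E001, per library (points) in the 8 groups (x axis), with group means as lines; the OSMI-2 experiment is left of the grey line. For TXNRD1 the DMSO 6 h libraries (64.0% to 82.8%) fall below the other OSMI-2 experiment libraries, and the SLC7A11 share rises from 2 h to 6 h in the TMG experiment.

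In the TMG experiment TXNRD1 gave -0.22 with TMG at 2 h (log2, SE 0.08; edgeR adjusted p = 0.0798), -0.01 at 6 h and -0.03 with time in DMSO, and none passed. E002, the exon, had 7.87 CPM with DMSO and 6.48 CPM with TMG at 2 h, without overlap, and 8.30 and 7.64 CPM at 6 h.

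**Figure D3:**
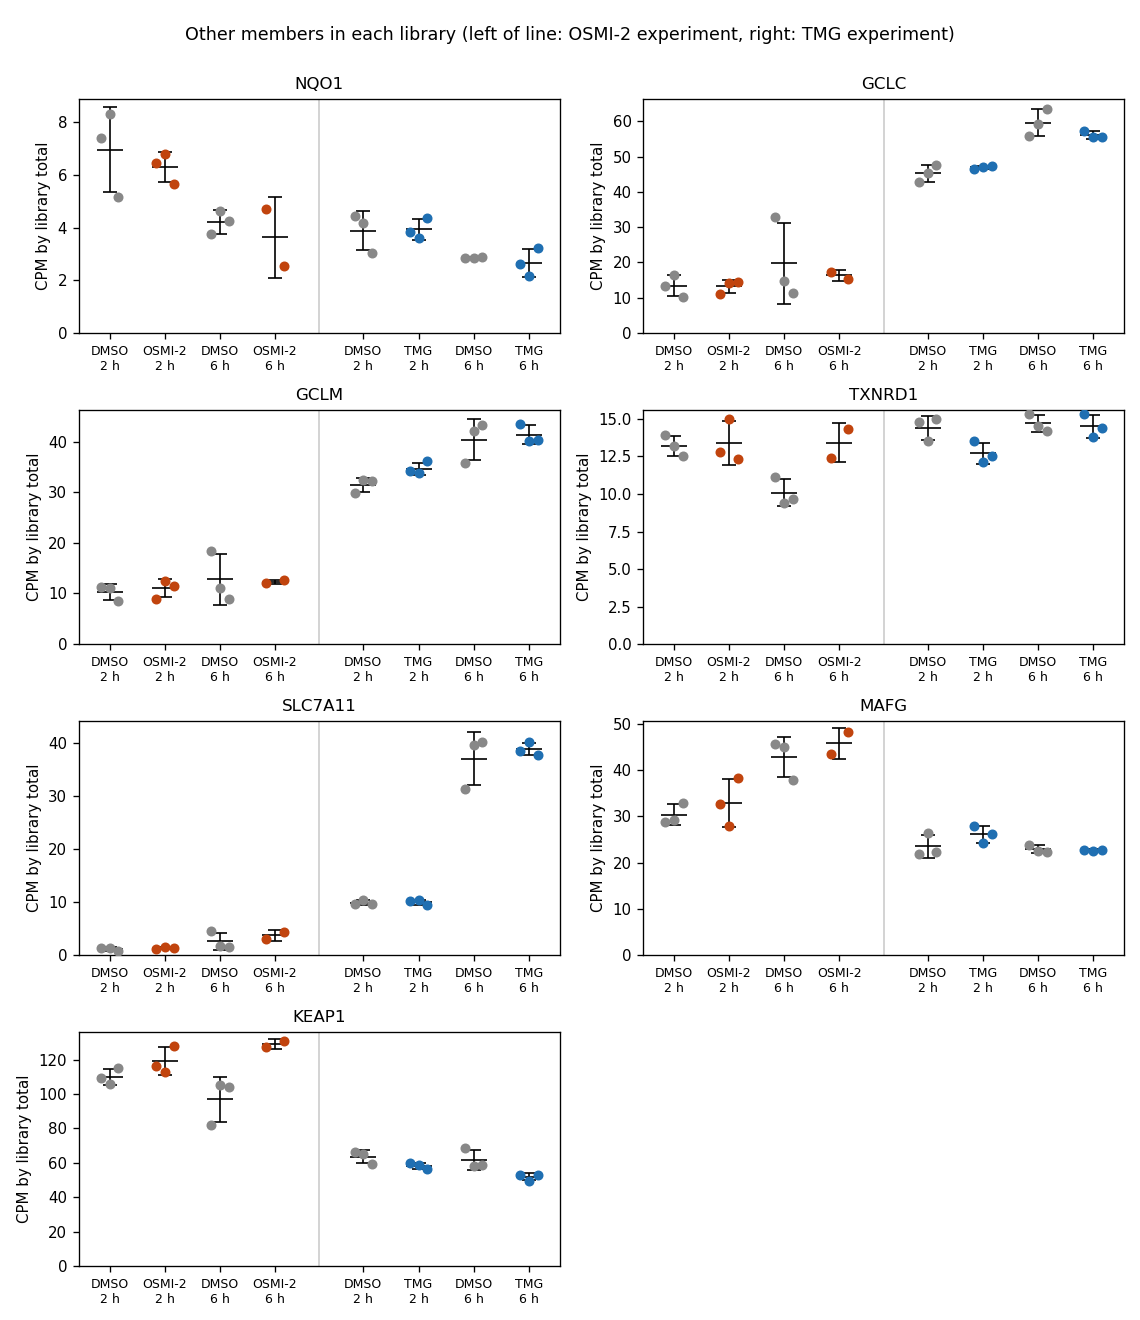
Levels of the other 7 members (CPM by library total, y axes from 0) in each library (points) of the 8 groups (x axes), with the mean and SD in black; grey is DMSO, red OSMI-2 and blue TMG, and the OSMI-2 experiment is left of the line. SLC7A11, GCLC and GCLM sit higher in the TMG experiment and KEAP1, NQO1 and MAFG in the OSMI-2 experiment; DMSO 6 h library a is the highest library of that experiment in GCLC and GCLM, and in SLC7A11 it lies above the other DMSO 6 h libraries, beside OSMI-2 6 h library b (4.50 and 4.38 CPM).

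Counted as a list, at most 1 of the 8 genes passed the test in any comparison with TMG or with OSMI-2 at 2 h. With OSMI-2 at 2 h 0 of 8 passed the edgeR threshold, and so did 0% of 12343 genes (160 had an unadjusted p under 0.05, and DESeq2 called 1); the median log2 fold was 0.11 for the 8 genes and -0.01 for all genes. With TMG 0 of 8 passed at 2 h (7.91% of all genes did, 6.67% lower; medians -0.03 and -0.03) and 1 of 8, HMOX1, at 6 h (6.03% of all genes, 4.84% lower; medians -0.04 and -0.03). For the difference between TMG at 6 h and 2 h 0 of 8 passed (0.0242% of all genes), and for the difference between drugs at 2 h 0 of 8 (0% of all genes; 1025 had an unadjusted p under 0.05, and DESeq2 called 1).

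With OSMI-2 at 6 h, as a description, 3 of 8 were higher without overlap (HMOX1, KEAP1 and TXNRD1) and 0 lower. Of all genes, 12.6% were higher and 33% lower without overlap. TXNRD1 counts here through its long bin E001, while its other 2 bins, both exons, were lower without overlap. All 8 log2 folds were above 0 with TMM (0.13 to 1.75, median 0.61; all genes 0.15), but GCLC, GCLM and NQO1 were below 0 by library total. With time in DMSO of the TMG experiment 5 of 8 passed, 3 higher and 2 lower, beside 16.3% of all genes that passed higher and 29.6% lower, 45.9% in all. In DMSO of the OSMI-2 experiment 4 were lower without overlap (HMOX1, NQO1, TXNRD1, KEAP1) and 2 higher (SLC7A11, MAFG), where 6.63% of all genes were lower and 34% higher. TXNRD1 was again counted through its long bin E001, while 2 of its 3 bins had log2 ratios above 0 by library total. With time in DMSO, HMOX1 and NQO1 thus went down in both experiments, and SLC7A11 went up in the TMG experiment. In the OSMI-2 experiment its rise was not firm, at 0.51 (log2, SE 0.35) with TMM and 0.07 without DMSO 6 h library a. The other higher member, MAFG, gave -0.06 with TMM.

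**Figure D4:**
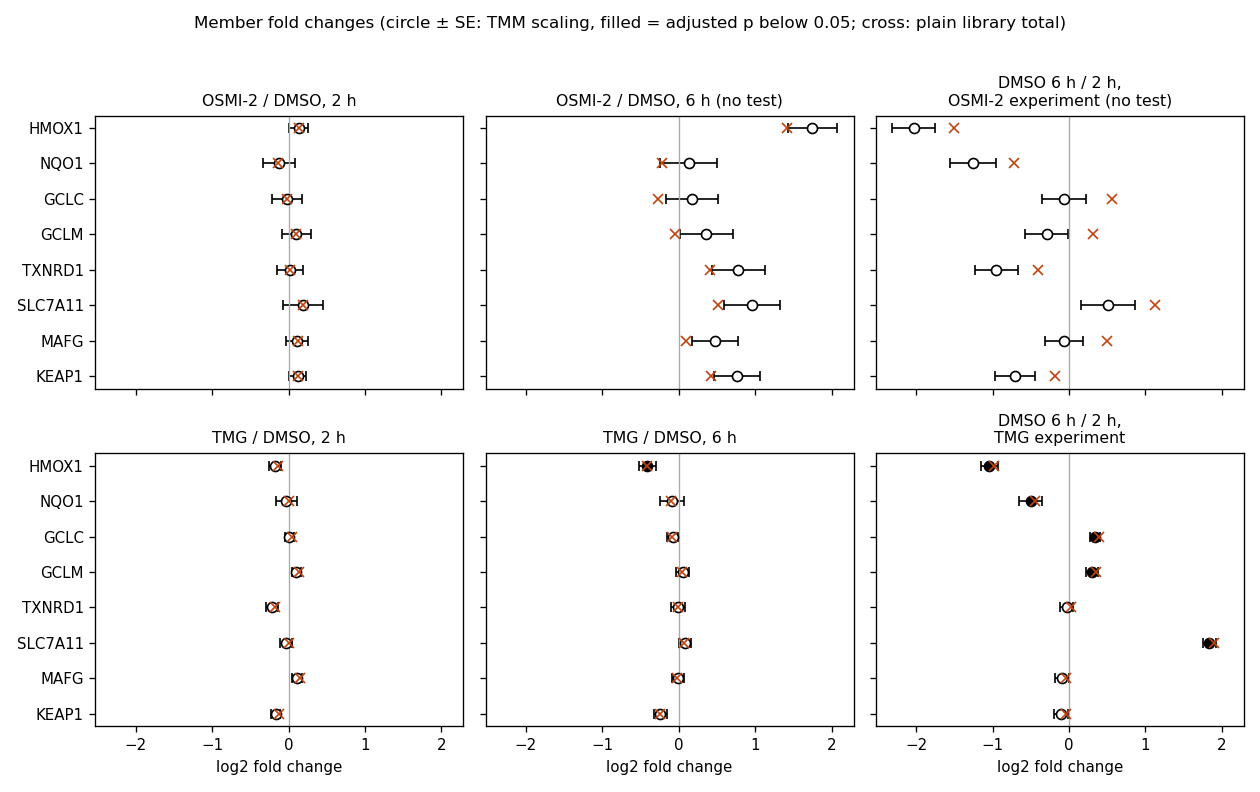
Log2 fold change (x axis) of each member (y axis) in 6 comparisons; circles with bars are the TMM-scaled edgeR value and its SE, filled where the adjusted p was below 0.05, and crosses the value by plain library total. Circles and crosses agree in the TMG experiment and part in the 2 panels that use DMSO 6 h libraries of the OSMI-2 experiment, where HMOX1 lies farthest from 0 on both scales.

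In the authors' deposited tables of bin usage 58 of the 65 member bins had a value with OSMI-2 at 6 h. Of these, 4 were below an adjusted p of 0.05, as were 6.46% of all bins with a value. Besides the TXNRD1 pair these were GCLC bin E017 (log2 fold 0.68, adjusted p = 0.0414) and KEAP1 bin E009 (0.46, adjusted p = 0.0303). No HMOX1 bin was among them. With OSMI-2 at 2 h, TMG at 2 h and TMG at 6 h the authors' deposited tables gave 0 member bins (of 65, 62 and 38 with a value), and 0.0111%, 0.247% and 0.0635% of all bins.

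Other genes of the pathway were read from fixed lists, each gene tested across all genes. Among 11 tested regulators of NRF2 none passed in any drug comparison, where between 0% (OSMI-2 at 2 h) and 7.91% (TMG at 2 h) of all genes did. With time in DMSO of the TMG experiment 5 of the 11 passed, near the 45.9% of all genes that did: NFE2L2, which encodes NRF2, rose by 0.44 (log2; 29.8 to 42.1 CPM), GSK3B, a kinase that marks NRF2 for another ligase, by 0.54, and RBX1, a subunit of the KEAP1 ligase, by 0.23, while MAFK fell by 0.56 and BACH2 fell by 0.39. Their median was 0.04 (all genes -0.07).

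Of 21 tested glutathione and thioredoxin genes 8 rose and 3 fell with time in DMSO of the TMG experiment (median 0.01), where 16.3% of all genes passed higher and 29.6% lower. PRDX1, a peroxiredoxin, rose by 0.89, the sestrins SESN2 by 0.79 and SESN1 by 0.46; GGT7 fell by 0.56, GSS, glutathione synthetase, fell by 0.38 and GPX1 fell by 0.31, a fall that turned to 0.04 with the GC trend removed. With TMG at 2 h 3 of 21 fell, where 6.67% of all genes did. They were GPX1 (-0.33), GGT7 (-0.28) and SLC3A2, the partner chain of SLC7A11 (-0.20), which passed in 6 of 13 alternatives. With TMG at 6 h 0 of 21 passed, where 6.03% of all genes did. GPX4 (1.23, 840 to 1570 CPM) and GPX1 (1.17, 228 to 407 CPM) were higher with OSMI-2 than with DMSO at 6 h. There 4.94% of all genes passed and 2.57% passed higher. With DMSO at 2 h in that experiment GPX4 had stood at 1390 CPM and GPX1 at 345 CPM. For both genes the OSMI-2 range at 6 h overlapped the DMSO range at 2 h. GPX4 passed in 5 and GPX1 in 4 of 12 alternatives. Both were lost by library total, where 0 of all genes passed.

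Of 22 detoxification genes tested with TMG at 2 h 3 fell (EPHX1 -0.23, ABCC1 -0.20, GSTP1 -0.16), where 6.67% of all genes did, and of 21 tested at 6 h 3 fell (CBR1 -0.33, TRIM16 -0.31, ABCC1 -0.26), where 4.84% did; 0 rose, and the list medians were -0.09 and -0.11. These calls were not firm: over 13 alternatives ABCC1 passed in 3, GSTP1 in 4 and EPHX1 in 7 at 2 h, and TRIM16 in 5, CBR1 in 8 and ABCC1 in 8 at 6 h, and with a library left out 0 to 5 of the list passed at either time. With OSMI-2 at 6 h 0 passed, where 4.94% of all genes did, median 0.10 (all genes 0.15). Of 7 NADPH genes 0 passed with TMG at either time, where 7.91% (2 h) and 6.03% (6 h) of all genes did. With time in DMSO of the TMG experiment 3 rose and 1 fell, where 45.9% of all genes passed. IDH1, the cytosolic isocitrate dehydrogenase, rose by 0.42, MTHFD2 by 0.25 and TALDO1, transaldolase, by 0.21, and ME1, malic enzyme, fell by 0.31. Of 12 heme and iron genes 0 passed with either drug at either time. Of all genes 0% and 4.94% passed with OSMI-2 at 2 h and 6 h, and 7.91% and 6.03% with TMG. With time in DMSO of the TMG experiment 5 fell and 1 rose (29.6% and 16.3% of all genes did). Among the falls were BLVRB (-0.54), BLVRA (-0.36), which reduces the biliverdin that HMOX1 makes, and FTL (-0.36), ferritin light chain.

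HMOX1 and SLC7A11 each belong to a further program. Of 8 heat shock genes 7 fell and 1 rose with time in DMSO of the TMG experiment (29.6% and 16.3% of all genes did), with a median of -0.83 against -0.07 for all genes. HSPA1B went from 522 to 193 CPM (-1.50; adjusted p = 4.99e-14 in edgeR) and DNAJB1 from 198 to 78.5 CPM (-1.39), HSPA1A gave -1.90 at 0.357 CPM or less on average, and HSP90AA1 was the one that rose (0.30). HSPA1A and HSPA1B are near-identical copies, so counts may be divided between them. HSPB1 (1.05, from 32.2 to 53.1 CPM) and HSPA1B (1.03, from 273 to 437 CPM) passed with OSMI-2 at 6 h, where 2.57% of all genes passed higher. With DMSO at 2 h in that experiment HSPB1 had stood at 57.8 CPM and HSPA1B at 669 CPM. Neither mean with OSMI-2 at 6 h was thus above its DMSO mean at 2 h. HSPB1 passed in 5 and HSPA1B in 4 of 12 alternatives. The list median was 0.75, and 0.36 by library total, where neither passed. Of 10 ATF4 genes 7 rose and 3 fell with time in DMSO of the TMG experiment (median 0.76). Of all genes 16.3% passed higher and 29.6% lower there. CHAC1 rose by 2.27, VLDLR by 1.30 and DDIT4 by 1.01, while ASNS (-1.29, from 680 to 289 CPM), TRIB3 (-0.54) and PSAT1 (-0.32) fell. CHAC1 (1.56, and 1.22 by library total) and DDIT4 (0.95, and 0.61) passed with OSMI-2 at 6 h, where 2.57% of all genes passed higher. Neither passed by library total, and DDIT4 passed in 4 of 12 alternatives. With TMG 1 of 10 fell at 2 h (TRIB3, -0.25, passing in 5 of 13 alternatives), where 6.67% of all genes did. At 6 h 0 passed, where 6.03% of all genes did.

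Among 11252 genes the 5 whose log2 CPM was most like that of HMOX1 over the 23 libraries were NPAS1 (Pearson r 0.992), TAF10, UBE2S, VEGFB and LIMD2 (0.981 each). NPAS1 had 21.0 CPM with DMSO and 40.2 CPM with OSMI-2 at 6 h, and 18.6 and 10.7 CPM with DMSO at 2 h and 6 h in the TMG experiment. These genes have a GC of 60.8% to 67.3%, and the libraries share experiment and GC slope. The members themselves had r with HMOX1 of 0.91 (KEAP1), 0.77 (NQO1), 0.61 (MAFG), -0.22 (TXNRD1), -0.88 (GCLM), -0.89 (GCLC) and -0.91 (SLC7A11). Their GC content, in that order, was 62.1%, 48.2%, 57.2%, 46.6%, 43.4%, 44.2% and 38.6%. These correlations describe 23 libraries in 2 experiments and carry no test.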

How the data were processed

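HEK293T libraries of polyadenylated RNA were analysed from 4 tables, 1 per drug and time, in which the authors deposited whole-number counts per bin, without normalization. For bin usage, the same deposited tables give a log2 fold with its p-value, raw and adjusted; the column names, per the file headers, are those of a DEXSeq result. STAR and hg19 are named in the submitters' processing notes, with no role; the use of strand in counting is not given in the sources used here. Deposited counts of index reads were not used.

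Bins were summed per gene, leaving out detained introns. Printed CPM use the library total. Folds and tests came from edgeR 4.0.16 in R 4.3.3 (TMM over genes and introns, filterByExpr, glmQLFit, glmQLFTest, two-sided, Benjamini-Hochberg over all genes, threshold 0.05). The script was tested on simulated data. Groups were compared in 8 ways, and alternatives (DESeq2 1.42.0, other scaling, no filter on low counts, all libraries in a joint fit, each library left out) were listed in advance; removal of a GC trend was chosen after seeing the data. No member has a detained intron, so the planned tests of detained introns were not made. GC content came from GENCODE 29 transcripts, for 91.3% of genes. Bin values and folds of bins use the library total, and a bin with 3 counts or fewer in a group has no ratio. Reads that touch several bins may be counted in each.

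The members, lists and tests were chosen with earlier results of these data known. The naming rule took the members in every comparison, up to 3 genes of each list and direction past the threshold by size of fold, and the 5 genes most like HMOX1 (log2 of CPM plus 0.5, mean of at least 50 counts). Some genes are not reported here. Of OSMI-2 at 6 h, 1 library was not analysed here.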

Additional observations from a re-analysis of the deposited data

How the results depend on the processing

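No paired analysis was possible because the count columns carry letters and not the replicate numbers of the labels. HMOX1 was higher with OSMI-2 than with DMSO at 6 h under every alternative run. Its fall and the rise of SLC7A11 with time in DMSO of the TMG experiment also kept their direction under every alternative. The call of HMOX1 with TMG at 6 h did not hold under most, as given above. The cause of the changes below was not tested.

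Counts of genes past the threshold moved as follows. With OSMI-2 at 6 h the count of 617 became 0 by library total, 5981 with all 23 libraries fitted jointly, 3075 with the GC trend removed, and 0 to 5268 with a library left out. With DMSO over time in the OSMI-2 experiment 2289 became 1129 (TMM over genes only), 1463 (median-of-ratios factors), 6133 (joint fit), 4453 (GC) and 519 to 4589 (a library left out). With TMG at 2 h 978 became 603 (library total), 0 (joint fit), 517 (GC) and 243 to 1212, and at 6 h 730 became 2 (joint fit), 1721 (GC) and 89 to 1248. With DMSO over time in the TMG experiment 5641 became 1827 (joint fit). For the difference between TMG at 6 h and 2 h 3 became 24 (DESeq2), 6 (library total), 0 (joint fit), 29 (GC) and 1 to 69. With OSMI-2 at 2 h 0 became 1 (DESeq2), and for the difference between drugs 0 became 1 (DESeq2) and 0 to 272. Leaving out a library of OSMI-2 at 6 h leaves 1, which is then assumed to vary like the others.

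Of the members, those past the threshold with TMG at 6 h went from 1 to 0 with DESeq2, TMM over genes only, median-of-ratios factors, the joint fit and GC removal, to 2 by library total (KEAP1 with HMOX1), and to 0 to 1 with a library left out; with TMG at 2 h they went from 0 to 0 to 1 with a library left out, and with DMSO over time in the TMG experiment from 5 to 2 in the joint fit. Sign changes of values near 0, in the order DESeq2, TMM over genes only, median-of-ratios factors, joint fit and GC removal, were 0.01, 0.02, 0.01, 0.08 and 0.09 for GCLC with OSMI-2 at 2 h, 0.02, 0.02, 0.02, 0.03 and 0.00 for TXNRD1 and 0.02, 0.02, 0.02, 0.03 and 0.08 for MAFG with TMG at 6 h. NQO1 with TMG at 2 h turned to 0.01 (DESeq2), 0.00 (median-of-ratios), 0.01 (library total) and 0.02 (joint fit), and SLC7A11 to 0.01 (library total, joint fit). With DMSO over time in the TMG experiment TXNRD1 turned to 0.04 (DESeq2 and both other factors), 0.03 (library total) and 0.08 (joint fit), MAFG to 0.02 (joint fit) and 0.13 (GC), KEAP1 to 0.01 (joint fit) and 0.24 (GC), and GPX1 to 0.04 (GC). With a library left out, the member ranges that crossed 0 were -0.30 to 0.01 (NQO1), -0.17 to 0.16 (GCLC), -0.02 to 0.22 (GCLM), -0.08 to 0.12 (TXNRD1) and -0.02 to 0.38 (SLC7A11) for OSMI-2 at 2 h, -0.39 to 0.53 (NQO1) and -0.04 to 0.62 (GCLC) for OSMI-2 at 6 h, -0.44 to 0.20 (GCLC) and -0.13 to 0.07 (MAFG) for DMSO over time in the OSMI-2 experiment, -0.19 to 0.09 (NQO1) and -0.01 to 0.03 (GCLC) for TMG at 2 h, -0.25 to 0.03 (NQO1), -0.01 to 0.10 (GCLM), -0.06 to 0.05 (TXNRD1), -0.01 to 0.14 (SLC7A11) and -0.04 to 0.05 (MAFG) for TMG at 6 h, and -0.09 to 0.00 (TXNRD1) for DMSO over time in the TMG experiment. Depth limits SLC7A11 at 2 h in the OSMI-2 experiment (42 to 154 counts per library) and NQO1 (86 to 681).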
